A study of Mus musculus with 2 samples.

Results

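Apolipoproteins and the genes that handle lipoproteins were examined in the hypothalamus of mice lacking Crtc1 and of wild-type mice. The group held 10 genes: the apolipoprotein genes Apoc1, Apoe, Apod and Clu, the lipase gene Lpl, the receptor genes Lrp1, Lrp8 and Vldlr, and the sterol exporter genes Abca1 and Abcg1. All probe sets that the platform annotation paired with one of these symbols alone were taken, 26 of the 34945 probe sets paired with 1 gene. Apoc1 and Lpl were chosen by their signal difference between these same pools, so their values are a description and support nothing by themselves.

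RNA came from 12-week-old male mice, either Crtc1 knockout or wild type, that had been fasted for 18 h and refed for 6 h. Equal amounts of RNA from 3 animals were combined and hybridised to 1 Affymetrix expression array per genotype, so no difference between genotypes could be tested and none has a replicate check. The coactivator encoded by Crtc1 binds CREB, a transcription factor that responds to cyclic AMP; per its title, the study asked about energy balance and fertility. For the strain of the mice and the design of the knockout allele, the sources used here give nothing. In RNA of a whole tissue, fewer cells of a type and less RNA per cell cannot be told apart.

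Lipoproteins are particles of lipid and protein that carry cholesterol, phospholipid and triglyceride between cells. In the brain they are made locally, mostly as HDL-like particles that astrocytes load through ABC transporters and dress with apolipoprotein E and clusterin, and neurons take them up through receptors of the LDL receptor family. Lipoprotein lipase, which releases fatty acids from triglyceride-rich particles, is made by neurons and by glia, and loss of it from neurons is known to change body weight in mice.

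The knockout pool had a low Crtc1 signal, 85.1 against 631 and 31.5 against 209 by its 2 measured probe sets, in the direction of the labels. Whether these probe sets lie inside the deleted stretch is not stated. Hypothalamic peptide genes were present in both pools, with 7 of 13 marker genes measured. Of these 3 were higher in the knockout and 4 lower, with a median log2 difference of -0.07. The 2 largest differences were those of Avp, at 1690 in the knockout and 1149 in the wild type, and Oxt, at 969 and 695. The peptide genes Crh and Ghrh and the regional transcription factor genes Sim1, Nkx2-1 and Nr5a1 were too dim to count as measured. Hmx2 was at the floor in both pools. None of the 6 pituitary and none of the 5 liver marker genes with a probe set was measured. The ratio of 3' to 5' actin control signals, which rises as RNA degrades, was 1.47 in the knockout and 1.25 in the wild type, and that of Gapdh was 0.863 and 0.873.

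The data for the 10 genes had a simple form. Apoc1 was much lower in the knockout pool and Lpl higher, and by their brightest probe sets the other 8 genes lay within 1.13-fold of equality. Signals are linear intensities, and a difference is the knockout minus the wild-type value on the log2 scale, with values under the 30th percentile of an array raised to it (the floor). Probe sets whose mean log2 signal reached the median of all probe sets were taken as measured, which 25 of the 26 passed; the exception was Vldlr probe set 1451156_s_at, at 31.9 and 33.3. Each gene was represented by its brightest measured probe set. The error given beside a difference is that of the array, the SD of the difference among measured probe sets of the same gene at a like signal, and it holds no spread between mice.

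**Figure D1:**
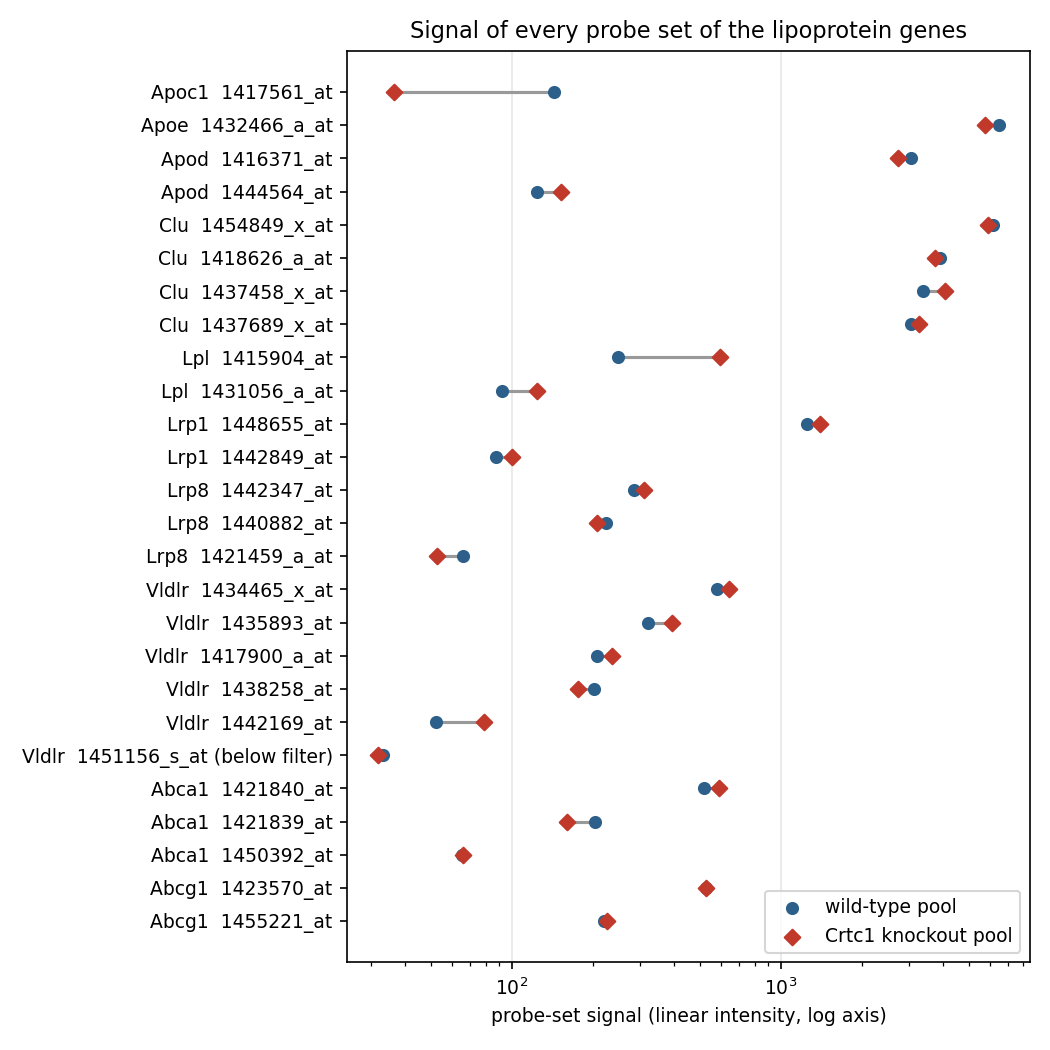
Linear signal (log axis) of every probe set of the 10 genes in the wild-type pool (circles) and the Crtc1 knockout pool (diamonds), joined by a line; each symbol is 1 pooled array. The longest lines are those of Apoc1, 36.5 in the knockout against 144, and of the brighter Lpl probe set, 597 against 249.

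Apoc1 encodes a small exchangeable apolipoprotein that inhibits lipoprotein lipase and hinders uptake of particles by receptors. Its 1 probe set, 1417561_at, read 36.5 in the knockout and 144 in the wild type. The wild-type signal was in the upper part of its array, at percentile 67.6, and the knockout signal at percentile 42.0, which is 1.78 times the floor. The difference was -1.98 (array error 0.32), or 3.94-fold lower. Only Crtc1 had a lower value among the 11312 measured genes, but Apoc1 was chosen for this difference, so its rank is no support. Because the knockout signal was dim, the size of this difference depended on how dim signals were treated: it was -1.40 when the floor was raised to the 50th percentile and -1.61 with a pseudocount of 16.

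Apoe encodes the main apolipoprotein of brain lipoproteins and lies next to Apoc1 on chromosome 7. Its 1 probe set was bright and read 5748 in the knockout and 6472 in the wild type. The difference of -0.17 was just over its array error of 0.16, and 4392 measured genes differed by more. The neighbouring gene of the same cluster therefore differed by 1.13-fold where Apoc1 differed by 3.94-fold, a gap that was not tested.

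Apod encodes a lipocalin that binds small lipids and that oligodendrocytes and perivascular fibroblasts make. Its brighter probe set read 2738 in the knockout and 3055 in the wild type, and its dimmer probe set 153 and 124. The differences of -0.16 and 0.30 had opposite signs, so Apod had no settled direction. Clu encodes clusterin, a secreted chaperone also known as apolipoprotein J. In the order of their brightness its 4 probe sets read 5904, 3766, 4078 and 3276 in the knockout and 6148, 3900, 3376 and 3050 in the wild type. The 2 brightest were lower by -0.06 and -0.05 and the other 2 higher by 0.27 and 0.10, and the SD of the differences among the 4 was 0.16.

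Lpl encodes lipoprotein lipase itself. Probe set 1415904_at read 597 in the knockout against 249, a difference of 1.26 (array error 0.23) or 2.39-fold higher. By this probe set 7 measured genes had a higher value, but Lpl was chosen for this difference, so its rank is no support. The dimmer probe set 1431056_a_at read 124 against 91.9, a difference of 0.44 (array error 0.32) or 1.35-fold. The 2 probe sets therefore had the same sign and unequal size, with an SD between them of 0.58. Their mean of 0.85 is under 2-fold.

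The 3 receptor genes were slightly higher by their brightest probe sets under each scaling, although Lrp8 was lower, at -0.10, when its probe sets were averaged. Lrp1 encodes a large endocytic receptor of neurons and glia that takes up particles carrying apolipoprotein E. It read 1396 in the knockout and 1257 in the wild type by one probe set and 100 and 87.5 by the other, and the differences of 0.15 and 0.19 were each within the array error (0.16 and 0.32). Lrp8 encodes an apolipoprotein E receptor that also serves as a receptor for reelin. Its probe sets read 311 against 286, 208 against 224 and 52.8 against 65.9, which gave differences of 0.12, -0.11 and -0.32. The probe sets of Lrp8 thus split in sign, and each of these differences was at or within its array error.

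Crtc1 acts through CREB, whose full DNA element (CRE) reads TGACGTCA, so the letters of this element were looked for near the starts of the genes. RefSeq promoter windows of build GRCm38.p6, 250 bases before to 50 after a start, matched 6 of the 10 genes with 11 windows. Apoc1, Clu, Lpl and Abcg1 had no window. The full element, searched on both strands, was in 0 of the 11 windows and in 1.79% of all 32851 windows of that length. Its shorter core TGACG, which the full element contains, was in 2 of the 11 and in 20.8% of all windows. Both belonged to Lrp8, the receptor gene whose probe sets differed by 0.12, -0.11 and -0.32. A further Lrp8 window, chr4:107802635-107802934, lies upstream of both and held no core. The other 2 are shown because they are the windows of these genes that hold the core, which stands in capitals (as CGTCA where it lies on the opposite strand). A match of letters is a description and not a site of binding.
Lrp8, chr4:107822911-107823210, plus strand: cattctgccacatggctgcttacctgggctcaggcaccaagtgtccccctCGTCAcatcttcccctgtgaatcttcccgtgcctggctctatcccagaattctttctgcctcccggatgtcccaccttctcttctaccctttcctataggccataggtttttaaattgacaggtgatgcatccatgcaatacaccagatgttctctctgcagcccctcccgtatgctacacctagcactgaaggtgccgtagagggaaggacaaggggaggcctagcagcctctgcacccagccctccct
Lrp8, chr4:107830703-107831002, plus strand: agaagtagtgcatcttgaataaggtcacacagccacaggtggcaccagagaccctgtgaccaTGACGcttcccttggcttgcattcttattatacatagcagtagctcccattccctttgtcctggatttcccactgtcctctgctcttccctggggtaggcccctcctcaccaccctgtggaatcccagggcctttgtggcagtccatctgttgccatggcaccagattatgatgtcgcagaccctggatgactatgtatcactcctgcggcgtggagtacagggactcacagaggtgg

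Vldlr encodes the VLDL receptor, the other reelin receptor and a binding site for triglyceride-rich particles alongside lipoprotein lipase. Its brightest probe set read 645 in the knockout and 578 in the wild type, a difference of 0.16 with an array error of 0.21. The next 3 read 393 against 322, 236 against 208 and 176 against 203, and the dimmest measured probe set, 1442169_at, read 78.9 against 52.3. Of the 5 measured probe sets 4 were higher and 1 lower, and the dimmest, at 0.59 or 1.51-fold, was the one probe set of the 8 genes besides Apoc1 and Lpl to pass 1.5-fold. Their mean was 0.20 and their SD 0.29.

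The ABC transporter genes Abca1 and Abcg1 encode pumps that load cholesterol onto apolipoproteins and HDL, and both are textbook targets of the sterol-sensing liver X receptors. Abca1 read 590 against 520 by its brightest probe set, 160 against 204 by the next and 66.1 against 65.3 by the dimmest. The differences of 0.18, -0.35 and 0.02 did not share a sign. Abcg1 read 527 in the knockout and 528 in the wild type by its brighter probe set and 227 and 220 by the other. With differences of 0.00 and 0.05 it was the gene with the smallest difference of the 10.

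**Figure D2:**
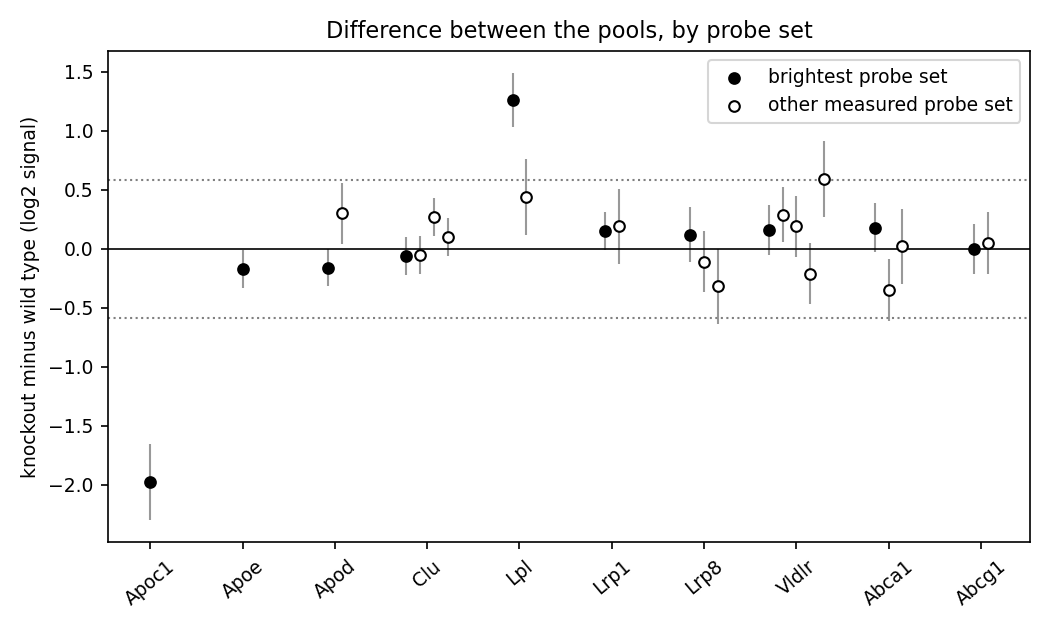
Difference between the pools (knockout minus wild type, log2 signal) for each measured probe set of the 10 genes, with the brightest filled; bars show plus and minus the array error and dotted lines mark 1.5-fold. Both Lpl probe sets are above 0, at 1.26 and 0.44, while probe sets of Apod, Clu, Lrp8, Vldlr and Abca1 fall on both sides of it.

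Counted over the genes, 1 of 10 was at least 1.5-fold higher and 1 of 10 at least 1.5-fold lower; over all measured genes the shares were 2.06% and 1.44%, and 3.50% either way. Those 2 genes are Lpl and Apoc1, chosen for this contrast, so nothing is read from that count. Of the other 8 genes 0 reached a difference of 1.2-fold, which 21.9% of all measured genes did, with 4 higher and 4 lower and values from -0.17 to 0.18. Their median was 0.06, and the median of all measured genes was 0.00. The share of 21.9% is not matched for signal. The brightest probe sets of the 8 genes had array errors from 0.16 to 0.23, and dim genes of the background had 0.32. Over single probe sets of these 8 genes, 13 were higher and 9 lower, and 1 of 22 was at least 1.5-fold apart, where 4.44% of all measured probe sets with 1 gene were. Past their own array error were 6 of the 22, and 27.4% of all such probe sets. Among the 8 genes with several measured probe sets, those of 2, Lpl and Lrp1, shared a sign, and the share over all 5199 such genes was 42.5%.

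The split of the background into higher and lower genes depended on the scaling. At 1.5-fold 58.8% of the genes past the limit were higher with the deposited scaling, and 41.9% with median centring, 48.6% with quantile normalization and 48.8% with loess. At 2-fold, which 0.433% of genes reached, the share was 61.2% and became 50% with median centring.

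**Figure D3:**
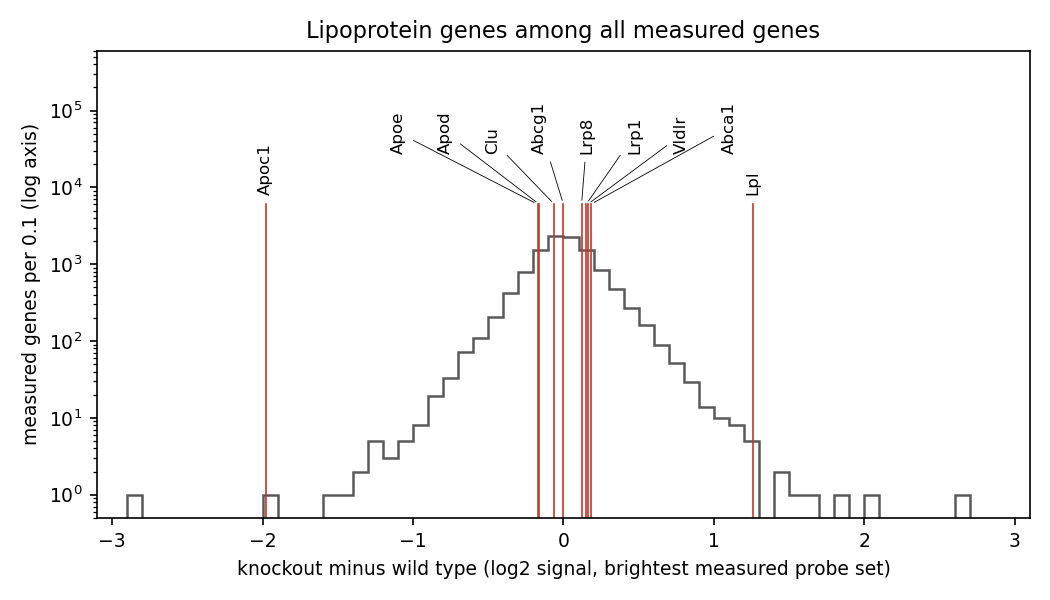
Number of measured genes (log axis) in steps of 0.1 of the difference between the pools (knockout minus wild type, log2 signal), with the 10 genes drawn as vertical lines. Apoc1 at -1.98 and Lpl at 1.26, both chosen for their difference, are in the tails. The other 8 lie between -0.17 and 0.18, where most of the 11312 genes are.

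The other genes of lipoprotein biology were taken from 6 lists of 102 genes in all, of which 91 had a probe set of their own and 62 were measured. Of the 62, 30 were higher and 32 lower with a median of -0.01, and 2 (Trem2 and Abca8b) were at least 1.5-fold higher and 0 at least 1.5-fold lower. Across the measured genes of the lists 51 were within 1.2-fold. Over all 11312 measured genes 3.50% were at least 1.5-fold apart either way (2.06% higher and 1.44% lower), and 21.9% at least 1.2-fold, so nothing is read from these counts. Trem2 and Abca8b each rested on 1 dim probe set, and Abca8b was under 1.5-fold with each other scaling.

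Most other genes with an apolipoprotein name or role were too dim to be measured in this tissue. Of 18 on the list with a probe set 3 passed, and 7 were at the floor in both pools, among them Apob, the structural protein of VLDL, and Apoc2, the activator of lipoprotein lipase. The measured ones differed little: Apoa2, which encodes an HDL apolipoprotein, read 52.2 against 55.1, Apol8 read 55.3 against 52.2, and Apoo, which encodes a mitochondrial protein despite its name, 1095 against 1142.

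Among 13 other measured receptor genes, 6 were higher and 7 lower, with a median of -0.01. Trem2, a lipid and lipoprotein receptor of microglia, read 84.4 in the knockout and 52.1 in the wild type, a difference of 0.70 (array error 0.32). Stab1, a scavenger receptor gene, differed by -0.47, Lrp6, whose product is a Wnt coreceptor, by 0.39, and Lrp3 by -0.35. The 6 measured genes for receptor chaperones and adaptors were all within 1.2-fold. Of these Snx17, which recycles Lrp1, differed by 0.16, Reln, which encodes the reelin ligand of Lrp8 and Vldlr, by 0.10, and Lrpap1, the chaperone of the receptor family, by -0.04.

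A list of lipases, partners of lipoprotein lipase, and genes of lipid droplets and fatty acid binding had 12 measured genes. Of these 9 were lower and 3 higher under each scaling (7 and 5 with averaged probe sets). Their median was -0.15, and 0 were at least 1.5-fold apart. The measured partners of lipoprotein lipase, named for that role, were within 1.2-fold. Lmf1 differed by 0.08, Lmf2 by 0.15, Sel1l by -0.05 and Angptl4 by -0.08. Lipe, the hormone-sensitive lipase gene, read 68.8 against 93.5 (-0.44, array error 0.32), Pnpla2, the triglyceride lipase gene of lipid droplets, 265 against 326 (-0.30, array error 0.23), and Plin2, a lipid droplet coat gene, 107 against 132 (-0.30, array error 0.32). Gpihbp1, which anchors the lipase on capillaries and is named here for that role, read 31.2 and 29.4 and was not measured.

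Sterol transport and HDL genes, with 12 of 18 higher, had a median of 0.06, and with median centring 9 of 18 were higher. Abca8b, an ABC transporter gene, read 106 against 69.6 (0.61, array error 0.32), Abca7, a relative of Abca1, 131 against 179 (-0.45, array error 0.26), Lcat, which esterifies HDL cholesterol, 330 against 281 (0.23), and Stard3, a sterol carrier gene of late endosomes, 382 against 443 (-0.21). Regulators of lipid handling had 3 of 10 higher and a median of -0.07. Ppard and Rxra, which encode nuclear receptors, differed by 0.33 and -0.31, and Insig1, a brake on sterol synthesis, by -0.14. The liver X receptor gene Nr1h3 read 51.8 and 43.3 and was too dim to be measured.

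**Figure D4:**
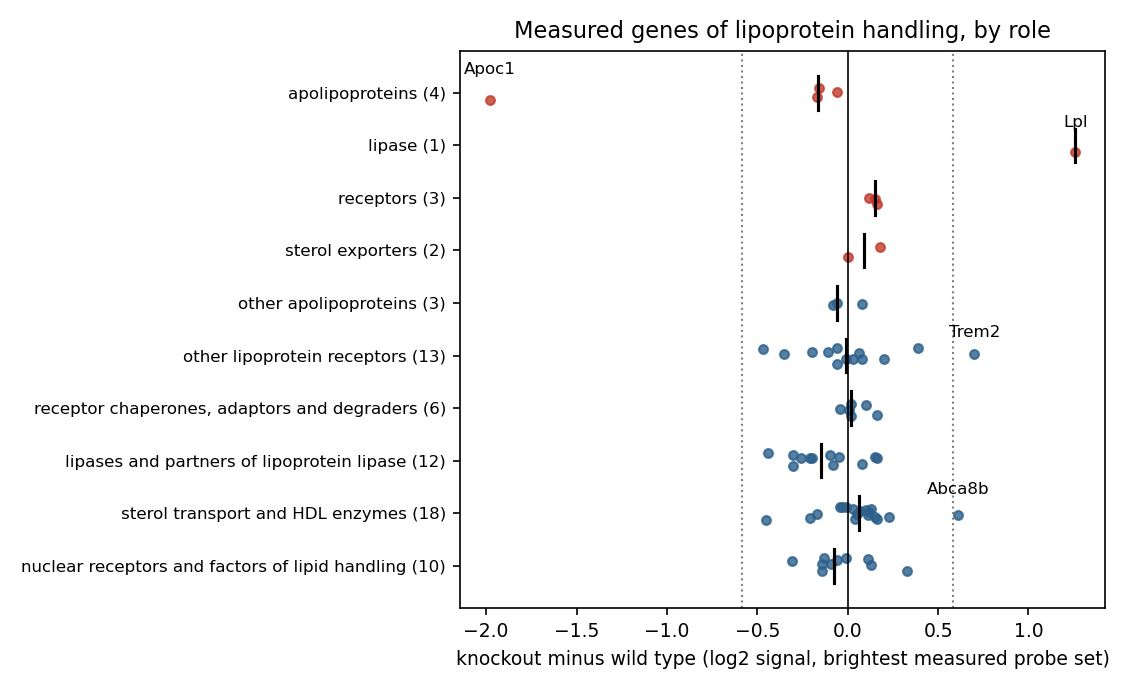
Difference between the pools (knockout minus wild type, log2 signal, brightest measured probe set) for each measured gene of lipoprotein handling, by role, with the number of genes in brackets; the 10 genes of the group are red, the other genes blue, black bars are medians and dotted lines mark 1.5-fold. Besides Apoc1 and Lpl, Trem2 at 0.70 and Abca8b at 0.61 lie past the dotted lines.

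Markers of cell types and of neighbouring brain regions were read in the same pools. Microglia and macrophage markers, cells in which Apoc1, Apoe and Lpl are known to be expressed, had 8 of 11 higher and a median of 0.22. With median centring 7 of the 11 were higher with a median of 0.16, and with averaged probe sets the median was 0.14. Their summed signal was 4997 in the knockout and 4442 in the wild type, the largest differences were those of Trem2 (0.70, a gene also on the receptor list) and P2ry12 (0.31), and no marker was at the floor in both pools. With the deposited scaling, higher markers also outnumbered lower ones in the lists of astrocytes, endothelium, oligodendrocytes and their precursors, cortex and striatum. With median centring they no longer did so for astrocytes and oligodendrocytes (4 of 9 higher). Over all measured genes the median was 0.00 with the deposited scaling. Of the markers of lipid-associated microglia 4 of 9 were measured, namely Axl, Cd9, Ctsb and Ctsd. All 4 were within 1.2-fold, with a median of -0.05 and summed signals of 6980 and 7230. Most of these sums came from Ctsb (3798 and 3910) and Ctsd (2202 and 2270). Gpnmb, Lgals3 and Clec7a were too dim to be measured, and Cst7 and Itgax were at the floor in both pools. With those markers unmeasured, the list cannot tell whether such cells differed.

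Endothelial and pericyte markers had 7 of 11 higher, a median of 0.08 and summed signals of 3466 and 2873. Plvap, the diaphragm protein of fenestrated vessels, read 427 against 133 (1.68, array error 0.26), and Pdgfrb, a pericyte receptor gene, 170 against 120 (0.50). Astrocyte markers had 8 of 12 higher (6 with median centring), a median of 0.05, summed signals of 16356 and 16096 and the largest differences in Gli3 (0.52) and Aqp4 (0.34). Of the cortex and hippocampus markers 6 of 9 were higher; their median was 0.18 and summed signals of 5347 and 4634, and Neurod6 was 1.57-fold higher and Emx2 1.37-fold lower.

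Choroid plexus markers went the other way, with 8 of 10 lower, a median of -0.27 and summed signals of 9540 and 10713. Folr1 was 1.49-fold lower and Kl 1.46-fold lower. Markers of meninges and perivascular fibroblasts, which express Apod, had 5 of 10 higher, a median of -0.02, summed signals of 8907 and 9572, Slc22a6 at -0.47 and Slc6a13 at 0.41. Oligodendrocyte markers were within 1.2-fold in 9 of 9 measured, with summed signals of 18403 and 18516, Mog at 0.21 and Ermn at 0.18. Markers of their precursors had 4 of 5 higher, a median of 0.06 and summed signals of 3712 and 3500, with Cspg4 at -0.46 and Pdgfra at 0.39.

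Neuron markers were level, with 11 of 11 within 1.2-fold, 7 lower and 4 higher, a median of -0.02 and summed signals of 34071 and 34057. Tubb3 differed by -0.23 and Slc17a6 by 0.16, and with quantile normalization 6 of the 11 were higher. Tanycyte and ependymal markers had 6 of 9 lower, a median of -0.13 and summed signals of 2051 and 2181. Ccdc153 was 1.56-fold higher, Nes 1.52-fold lower, and Rax was at the floor in both pools. Striatum markers had 4 of 6 higher, a median of 0.10 and summed signals of 3777 and 3625, with Rgs9 at 0.51 and Drd1 at 0.13. Of the red blood cell genes 1 was measured, Alas2, at 0.09. The part that these cell types had in the values of Apoc1 and Lpl was not tested.

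The place of Apoc1 and Lpl on their chromosomes was set against their neighbours in the gene order of assembly GRCm38.p6. Of the 20 protein-coding genes nearest to Apoc1 on chromosome 7, 9 were measured. Of these 7 were lower and 2 higher, their median was -0.17, and 0 reached 1.5-fold. Tomm40, a subunit of the mitochondrial import pore, differed by -0.19, the cell adhesion genes Nectin2 and Bcam by -0.17 and 0.10, and Clptm1 by -0.10. The lowest neighbour was Clasrp at -0.58 (array error 0.23) or 1.49-fold, just short of 1.5-fold. Besides Clasrp and Apoe, Gemin7 (-0.32, array error 0.23) and Ppp1r37 (-0.22, array error 0.21) were lower by more than their array error. The 2 higher neighbours were within theirs. Clasrp, Gemin7 and Ppp1r37 were named after their values were seen. Neighbours of Apoc1 and Lpl were counted with the deposited scaling only. The apolipoprotein genes Apoc4 and Apoc2 of the same cluster were at the floor in both pools, and Relb read 39.7 and 46.9, too dim to be measured.

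Lpl is on chromosome 8, the chromosome of the targeted gene, 44 protein-coding genes from Crtc1. Of its 20 nearest genes 10 were measured. Of these 6 were higher and 4 lower, with a median of 0.08 and values from -0.17 to 0.70. The 1 neighbour past 1.5-fold was Npy1r, a neuropeptide Y receptor gene 9 genes away, which read 157 against 97.0 (0.70, array error 0.32). Zfp868 (0.54, array error 0.32), Zfp930 (0.50, array error 0.32) and Psd3 (0.22, array error 0.16) were also higher by more than their array error. They were named after their values were seen. The 4 lower neighbours were each within their array error. Of the genes directly flanking Lpl (named for their place), Ints10 differed by -0.17, within its array error of 0.23 and with probe sets of opposite sign, and Slc18a1 was at the floor in both pools and has no difference. On the chromosome of Crtc1 6.80% of 603 measured genes were at least 1.5-fold apart and 1.82% at least 2-fold, against 3.31% and 0.355% of the 10709 genes elsewhere. The 41 and 11 genes counted on that chromosome include Crtc1, the targeted gene, and Lpl, chosen for its difference. The part that this position had in the Lpl value was not tested.

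**Figure D5:**
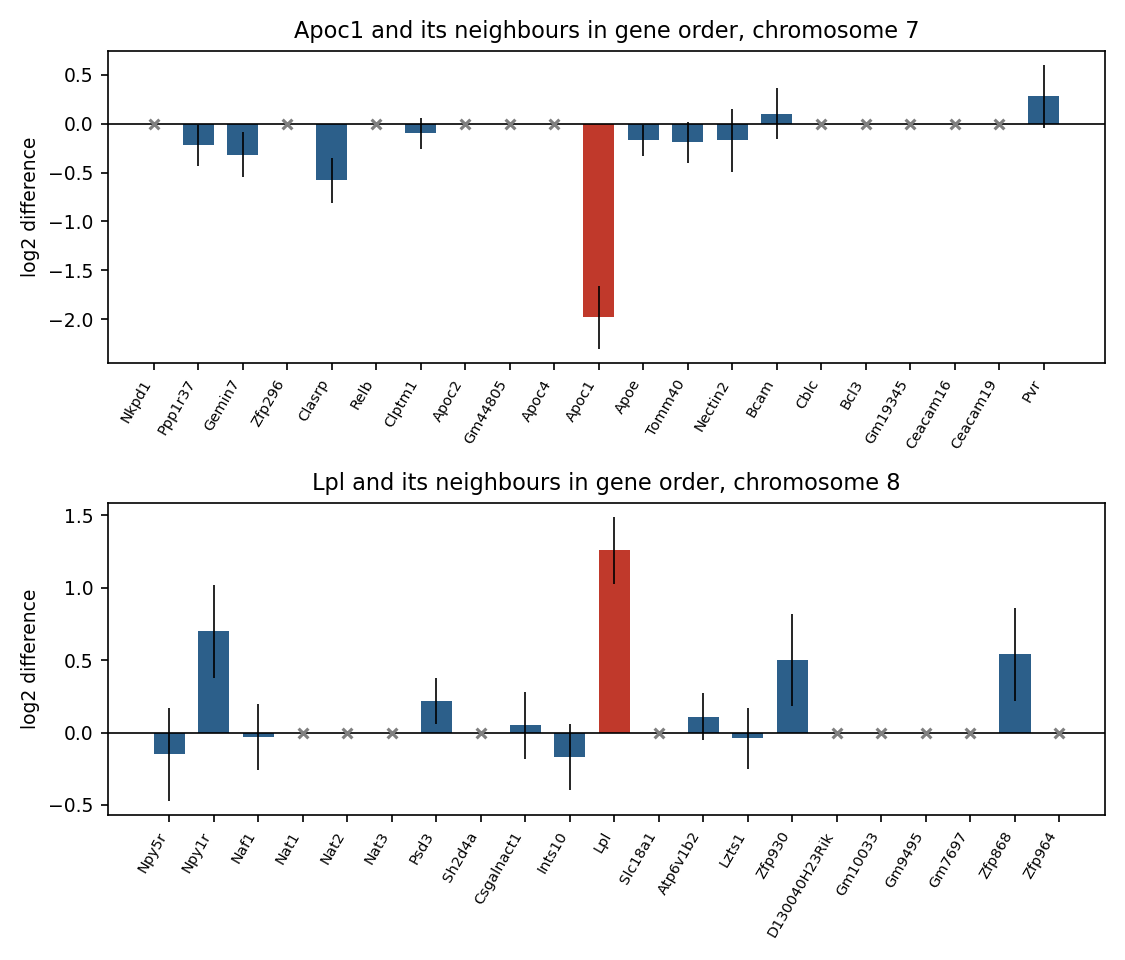
Difference between the pools (knockout minus wild type, log2 signal) for Apoc1, Lpl (red) and the 10 protein-coding genes on either side of each in gene order; error bars are the array error and crosses mark genes that were not measured. Apoc1 stands at -1.98 among neighbours from -0.58 to 0.28, and Lpl at 1.26 among neighbours from -0.17 to 0.70.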

How the data were processed

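RNA of the hypothalamus was measured in 2 pools, each of RNA from 3 mice per the series design text and labelled from 30 ug of total RNA per the labels. The authors deposited linear signal intensities, 1 per probe set and array; how the probes were summarised is not stated in the labels. In the values the mean without the lowest and highest 2% was 200.0 on both arrays, so 1 factor scaled each array. The floor at the 30th percentile was 20.5 in the knockout and 20.2 in the wild type. Of 45101 probe sets 64 controls were left out. Gene names came from the platform annotation, brought up to date through Entrez IDs in RefSeq (34741 of 34945 matched). The array error was 0.32 below a mean log2 signal of 7, and 0.26, 0.23, 0.21 and 0.16 for 7 to 8, 8 to 9, 9 to 10 and above. With 1 array per genotype there was no test, and the number of arrays limits the precision. Sorting of probe sets, differences and counts used Python 3.11.15.

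The 10 genes, the lists and the rule for naming were chosen with earlier results of these data known. Named were the 10 genes, Crtc1, pathway genes at least 1.5-fold apart and besides these the 3 of largest difference per pathway list, the 2 of largest difference per marker list, markers at the floor, neighbours at least 1.5-fold apart and the genes of the Apoe cluster. Alternatives were 3 scalings, 2 floors, a pseudocount, 2 filters, averaged probe sets and leaving out probe sets that can match several transcripts.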

Additional observations from a re-analysis of the deposited data

How the results depend on the processing

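With 1 array per group, stability could only be read across settings. No paired analysis was possible because each genotype has 1 pooled array and no test was made. In 142 of 167 recomputed values a difference moved by no more than its array error or a count by no more than 1.5 times. Part of these could not move, because a floor or filter leaves unchanged the difference of a gene whose brightest signals lie above it. The total is therefore no measure of stability. Apoc1 was lower in all 9 settings that measured it, at -1.40 with the floor at the 50th percentile and -1.61 with the pseudocount; it was not measured with the filter at the 70th percentile, which left 1 of the genes past 1.5-fold. Lpl was higher in all 10 settings, of which the floors and filters left it at 1.26, and it was 0.85 with averaged probe sets. Averaging gave Apod 0.07 and Abca1 -0.05 and also turned the signs of Clu (0.07) and Lrp8 (-0.10); Abcg1 changed sign in 3 settings. Apoe and Clu had no value without probe sets that can match several transcripts.

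Of the pathway genes, 1 passed 1.5-fold with median centring, quantile normalization or loess (Trem2) or without those probe sets (Abca8b; Trem2 then had no value), 0 with the pseudocount or the 70th percentile filter, and 7 with no filter. Over all measured genes, those at least 1.5-fold higher and lower were 138 and 96 with the pseudocount, 719 and 582 with no filter and 48 and 46 with the 70th percentile filter. At 2-fold these counts were 132 and 109 with no filter and 7 and 7 with that filter, and higher genes were 18 with the floor at the 50th percentile and 15 with the pseudocount. The filters changed both the number of genes and the share of them at least 1.5-fold apart. That share was 3.50% of 11312 genes with the filter used above, 7.15% of 18193 with no filter and 1.17% of 8020 with the 70th percentile filter. The cause of these and the other changes was not tested.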

Other observations

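Several apolipoprotein genes of the liver and gut were too dim to be measured and enter no count of measured genes unless the filter is dropped. With no filter on dim probe sets, Apom and Apoh are among the 7 pathway genes past 1.5-fold. Apom, which encodes the HDL apolipoprotein that carries sphingosine 1-phosphate, read 18.3 in the knockout and 45.3 in the wild type, and Apoh read 21.4 and 39.4. The lipase inhibitor gene Angptl4 was just measured, at 55.9 and 59.1. Apoa1, the main protein of plasma HDL, read 29.2 and 32.5, and Apoc3, an inhibitor of lipoprotein lipase like Apoc1, read 37.0 and 32.8. These genes were chosen after their values were seen, and at such signals a ratio is not given.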
